A study of Mus musculus with 12 samples.

Results

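The genes described here are those that write, copy and remove DNA methylation, together with Prdm14, in mouse embryonic stem cells whose Mediator occupancy was mapped by ChIP-seq. The set has 9 genes: Dnmt3a, Dnmt3b, Dnmt3l, Dnmt1, Uhrf1, Tet1, Tet2, Tet3 and Prdm14. They are members by name, with no threshold on a measured value, though the set was put together with earlier results of these data known. For MED1 and for MED24, both subunits of Mediator, the 4 peak lists of the protein were merged wherever peaks overlapped by 1 bp or more. Each merged region was given to the nearest protein-coding gene span within 100 kb (mm10 coordinates). On this rule 77 of 65291 MED1 regions and 65 of 66123 MED24 regions belonged to the set, and each of the 9 genes had at least 1 region of either protein. Distance alone does not show which gene a region acts on, and the gene table used gives spans without exons, so a region inside a gene is not called exonic or intronic.

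The cells were E14tg2a, an embryonic stem cell line of 129SV background, in clones named a and b. All carried a stable cRAF-ErT2 cassette, a RAF kinase fused to a hormone-binding domain that 4-hydroxytamoxifen (4OHT) switches on, and with it ERK signalling. All had been grown in serum, LIF and 2 µM Chir99021, a GSK3 inhibitor, and were then moved for 24 h into serum, LIF and 250 nM PD173074, an FGF receptor inhibitor. The 0 h group received no 4OHT and the 2 h group received 250 nM of it. MED1 was precipitated with its own antibody and MED24 with an antibody against a FLAG tag, which gave 4 groups of 2 clones and 8 peak lists; 4 input samples were not analysed here. No vehicle-treated library and no library of cells lacking the cassette was analysed, so 4OHT, time and ERK activation cannot be told apart. What separates the clones is not described in the labels, so the spread between them may be technical. Paired values are given below for clone a first and clone b second.

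DNMT3A and DNMT3B place methyl groups on unmethylated CpG sites, with DNMT3L as a cofactor without catalytic activity. UHRF1 recognises hemimethylated DNA after replication and brings in DNMT1, which restores it. The TET enzymes oxidise methylcytosine and so start its removal. PRDM14 is a zinc finger protein of naive embryonic stem cells and primordial germ cells, known there to hold down the de novo methyltransferase genes and FGF receptor signalling.

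Sequence at the transcription starts is shown first, because at Dnmt3a, Dnmt3b, Dnmt3l and Tet3 the region over a start was among those whose calls or ranks differed between 0 h and 2 h, and because the start of Tet1 lies beside the widest region of the set. The windows are from RefSeq (GRCm38.p6) and run from 250 bases before to 50 bases after a listed start, 5′ to 3′ on the strand of the gene. Windows were found for 8 of the 9 genes, 15 in all. Capitals mark matches to GGGCGG, the GC box read by SP factors, or to CACGTG, an E-box, on either strand, so that CCGCCC is a GC box on the other strand.
Dnmt3a, second start, chr12:3806910-3807209, plus strand: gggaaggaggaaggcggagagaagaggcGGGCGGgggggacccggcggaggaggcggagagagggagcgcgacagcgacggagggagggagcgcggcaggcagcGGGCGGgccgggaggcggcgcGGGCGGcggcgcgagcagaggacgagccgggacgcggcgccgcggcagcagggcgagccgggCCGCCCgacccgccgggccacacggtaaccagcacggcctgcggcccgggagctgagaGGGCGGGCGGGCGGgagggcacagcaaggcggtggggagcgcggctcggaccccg
Dnmt3b, chr2:153649199-153649498, plus strand: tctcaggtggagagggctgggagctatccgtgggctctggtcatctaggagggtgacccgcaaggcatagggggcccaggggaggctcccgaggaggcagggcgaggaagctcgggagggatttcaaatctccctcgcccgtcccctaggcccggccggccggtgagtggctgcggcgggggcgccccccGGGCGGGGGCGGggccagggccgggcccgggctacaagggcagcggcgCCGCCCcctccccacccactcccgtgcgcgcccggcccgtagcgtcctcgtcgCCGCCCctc
Dnmt3l, second start, chr10:78049592-78049891, plus strand: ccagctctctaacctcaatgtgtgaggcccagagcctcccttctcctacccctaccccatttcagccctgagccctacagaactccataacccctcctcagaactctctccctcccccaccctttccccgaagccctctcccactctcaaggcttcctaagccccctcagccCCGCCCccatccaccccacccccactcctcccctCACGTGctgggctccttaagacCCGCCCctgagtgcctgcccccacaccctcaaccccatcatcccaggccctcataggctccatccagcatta
Tet1, chr10:62887275-62887574, minus strand: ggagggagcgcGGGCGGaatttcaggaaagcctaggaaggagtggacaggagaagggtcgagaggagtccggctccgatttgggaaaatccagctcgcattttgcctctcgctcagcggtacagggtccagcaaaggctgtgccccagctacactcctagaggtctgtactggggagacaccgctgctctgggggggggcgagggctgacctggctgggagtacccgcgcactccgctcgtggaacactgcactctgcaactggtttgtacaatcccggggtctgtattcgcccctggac
Tet3, chr6:83441629-83441928, minus strand: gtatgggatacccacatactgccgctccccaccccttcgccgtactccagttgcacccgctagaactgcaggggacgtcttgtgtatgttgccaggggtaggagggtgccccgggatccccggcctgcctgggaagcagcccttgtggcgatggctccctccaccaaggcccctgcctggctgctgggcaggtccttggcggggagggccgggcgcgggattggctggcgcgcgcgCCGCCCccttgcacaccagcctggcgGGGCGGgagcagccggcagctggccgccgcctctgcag

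The windows differed in base composition. The Dnmt3a window held 47 CpG dinucleotides, an observed over expected ratio of 1.06, and 7 GC boxes, counting overlapping matches. Dnmt3b held 30 CpG (ratio 0.694) with 4 GC boxes, Tet3 22 (0.576) with 2, and Tet1 17 (0.607) with 1. The Dnmt3l window, by contrast, held 4 CpG, a ratio of 0.219, with 2 GC boxes and 1 E-box. Over all 32851 windows the median was 7 CpG and a ratio of 0.384, with the middle of the distribution between 0.176 and 0.750. A GC box stood in 35.7% of all windows and an E-box in 7.15%. No letters of an ETS site (CCGGAAGT), an AP-1 site (TGANTCA), an octamer (ATGCAAAT), an ESRRB site (TCAAGGTCA) or a STAT site (TTCCNGGAA) were found on either strand in the 15 windows. These occurred in 3.89%, 7.81%, 1.74%, 0.423% and 1.15% of all windows. Such matches describe the letters only. In all, 12 of the 15 windows lay under a MED1 region called in all 4 libraries, and 11 under such a MED24 region. Over all windows these shares were 33.5% for MED1 and 31.5% for MED24. The exceptions in both proteins were the last listed start of Dnmt1 and the first and last of Dnmt3l, and in MED24 also the start of Dnmt3b. A merged region can be wider than the peaks of a single library, so a window under it need not lie under a peak in each.

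Several facts of the whole data set touch the values below. The lists held 37483 to 48931 peaks and give no read numbers, and their depth is therefore unknown. Loci of embryonic stem cell genes (Pou5f1, Sox2, Nanog, Esrrb, Klf4 and Sall4) carried 66 and 69 called MED1 regions at 0 h and 45 and 49 at 2 h, and 61 and 58, then 49 and 54, for MED24. Of these loci's regions, 17 of 104 (16.3%) were lost and 9 gained in MED1, as defined below. For MED24, 17 of 86 (19.8%) were lost and 10 gained. Over all regions 6.90% and 8.83% were lost. The genes differed. Esrrb, Nanog and Klf4 had fewer called regions at 2 h in both proteins. Pou5f1 had 4 and 2, then 4 and 5, for MED1 and 3 and 4, then 6 and 6, for MED24. Sox2 had 11 and 12, then 14 and 13, for MED1, and Sall4 was lower in MED1 only. The sum over these loci was thus lower at 2 h, as were Prdm14 and Tet1, and whether these go together was not tested. Loci of primitive endoderm genes carried 5 to 11 MED1 and 7 to 9 MED24 regions, with Sox7 at 0 in both proteins. Loci of fibroblast genes carried 2 to 7 and 3 to 7, with Postn at 0 in both. At the fibroblast loci 4 of 11 MED1 regions (36.4%) were called only at 2 h, in both clones, and 2 of 11 MED24 regions (18.2%). Over all regions these shares were 17.6% and 16.0%, so MED24 lay near the background, and both rest on few regions. The part of other cell types in the results was not tested.

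At 2 h the 9 genes had about as many regions as at 0 h, but these covered less sequence. A region is called gained here if both 2 h libraries and neither 0 h library call it, lost in the reverse case, and retained if all 4 libraries call it. Of the 77 MED1 regions, 10 were gained, 4 lost and 24 retained, or 13.0%, 5.19% and 31.2%. Among all MED1 regions 17.6% were gained, 6.90% lost and 30.9% retained, so the set lay near the background in each class. Of the 65 MED24 regions, 11 were gained, 6 lost and 24 retained, or 16.9%, 9.23% and 36.9%. The corresponding shares of all MED24 regions were 16.0%, 8.83% and 32.6%, again close to those of the set. The other 39 MED1 and 24 MED24 regions had mixed calls, and 30 and 17 of them were called in a single library. The counts depend on requiring both clones. With clone b at 2 h left out, 18 MED1 regions were gained. Lost MED1 regions numbered 12 with clone a at 0 h left out, 13 with clone b at 0 h left out and 8 with clone a at 2 h left out. Lost MED24 regions numbered 10 and 15 with clone a or clone b at 0 h left out. Counted within each clone and averaged, which uses the pairing by clone, the set had 18.5 gained and 16 lost MED1 regions, and 15 gained and 14.5 lost MED24 regions. The same within-clone means over all regions were 19038 and 11565 for MED1 and 18140 and 12456 for MED24.

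By called regions, Prdm14 and Tet1 were lower at 2 h, and most of the other genes were higher. The 4 lost MED1 regions and the 6 lost MED24 regions all lay at Prdm14 or Tet1. Prdm14 lost 2 of 23 MED1 regions (8.70%) and 4 of 20 MED24 regions. Tet1 lost 2 of 16 (12.5%) and 2 of 10. Over all regions 6.90% and 8.83% were lost, so Prdm14 lay near the background in MED1. The other 7 genes held only 38 MED1 and 35 MED24 regions, so their lack of losses says little. Of the gained regions, 9 of 10 for MED1 and 10 of 11 for MED24 lay at the other 7 genes, a division made after the values were seen. Those 7 genes held 21 and 19 called MED1 regions at 0 h, and 32 and 31 at 2 h. For MED24 they held 21 and 17 at 0 h, and 29 and 32 at 2 h. The groups did not overlap in either protein. Neither did they over all MED1 regions, where 36161 and 34995 were called at 0 h and 41291 and 44811 at 2 h. Over all MED24 regions the numbers were 39864 and 36479, then 40452 and 47259, also without overlap and higher at 2 h. Over all 9 genes the MED1 numbers were 46 and 41 at 0 h and 48 and 44 at 2 h, groups that did overlap (exact two-sided permutation p = 0.667, n = 2). The MED24 numbers were 46 and 37, then 39 and 45 (exact permutation p = 1, n = 2). With 2 libraries a group the smallest p this test can give is 0.333.

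**Figure D1:**
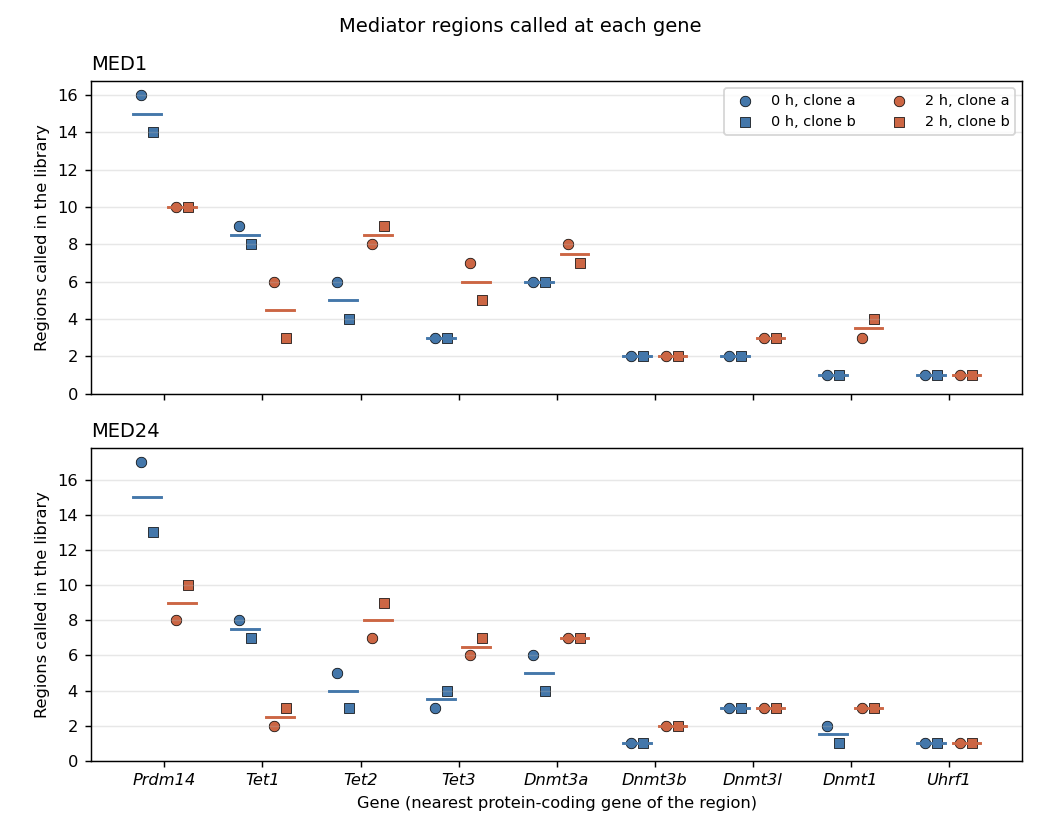
Number of Mediator regions called in each library at each gene (y axis, regions; x axis, gene), MED1 above and MED24 below. Circles are clone a, squares clone b, blue 0 h and red 2 h, and bars the mean of the 2 clones. Prdm14 and Tet1 sit lower at 2 h in both proteins, while Tet2, Tet3 and Dnmt1 sit higher.

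Bases under peaks were fewer at 2 h for the set as a whole. MED1 peaks covered 48.8 and 44.8 kb of the 9 loci at 0 h and 32.8 and 34.8 kb at 2 h. Means were 46.8 ± 2.82 kb and 33.8 ± 1.39 kb (SD, n = 2), a difference of -12.9 kb (exact permutation p = 0.333). MED24 peaks covered 42.7 and 38.6 kb at 0 h and 28.2 and 31.4 kb at 2 h, a difference of -10.8 kb (exact permutation p = 0.333, n = 2). Both clones were lower at 2 h in each protein. Over all regions the covered length did not shrink in this way: it was 23685 and 22918 kb at 0 h and 24888 and 27395 kb at 2 h for MED1. For MED24 it was 22837 and 20839 kb, then 22409 and 26630 kb. Without Prdm14 and Tet1 the set went the other way, from 15.9 and 16.1 kb to 21.8 and 21.2 kb for MED1 and from 16.4 and 14.4 kb to 19.4 and 21.0 kb for MED24. That sum did not hold gene by gene. Dnmt3a alone differed by 2.99 kb of the 5.52 kb mean difference in MED1. Dnmt3l was lower in both clones, from 2.40 and 2.14 kb to 1.88 and 2.04 kb of MED1 and from 2.52 and 2.27 kb to 2.21 and 1.94 kb of MED24. Dnmt3b was lower in both clones in MED1, by -0.068 and -0.285 kb, and Tet2 differed in MED24 by -0.614 kb in clone a and 1.10 kb in the other.

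**Figure D2:**
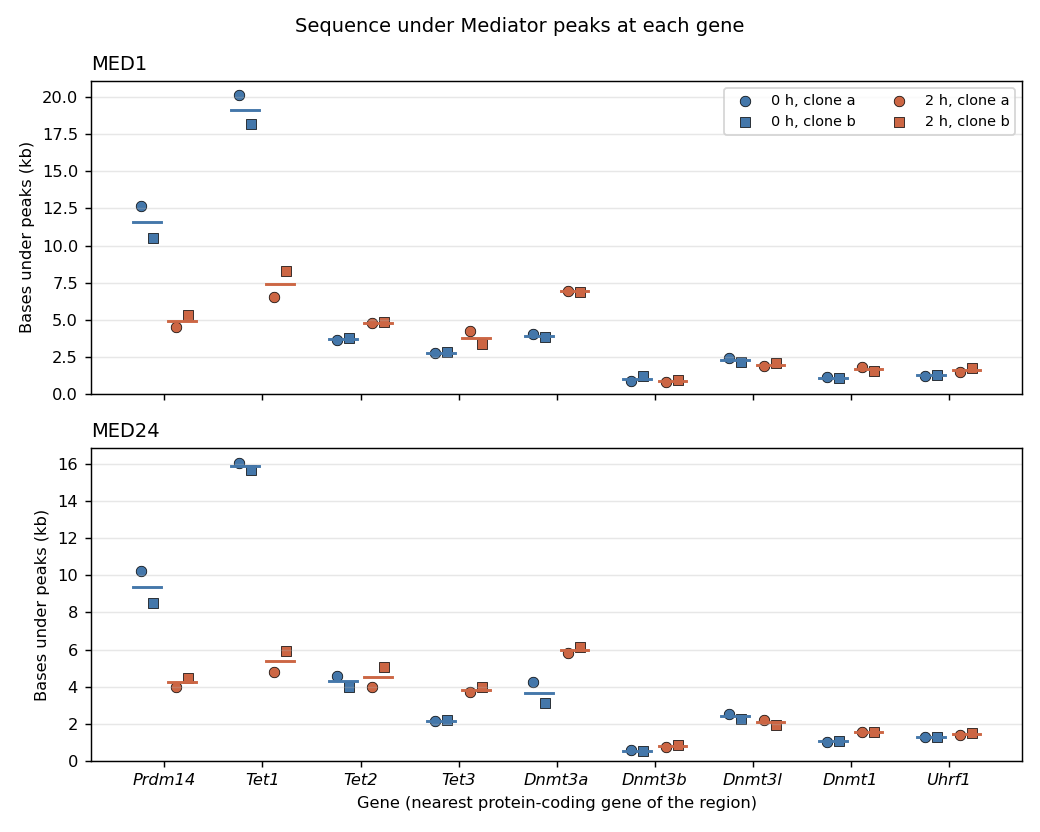
Sequence under peaks at each gene (y axis, kb; x axis, gene), MED1 above and MED24 below, with the same symbols as in the plot of region numbers. Tet1 and Prdm14 hold the most covered sequence at 0 h and the largest gaps between times, and Dnmt3a is higher at 2 h, from 4.03 and 3.80 kb to 6.92 and 6.89 kb of MED1.

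Retained regions were compared by rank. Within each library they were ordered by the authors' −log10 p-value (MED1) or score (MED24) and given a percentile, 100 being the strongest, over the same 20152 MED1 or 21529 MED24 regions each time. The 24 retained MED1 regions of the set had a mean percentile of 59.1 and 55.8 at 0 h and 50.8 and 51.2 at 2 h. Shifts within the clones were -8.25 and -4.58 points (exact permutation p = 0.333, n = 2). For the 24 retained MED24 regions the mean was 59.9 and 58.4, then 51.4 and 51.1, shifts of -8.49 and -7.28 points (exact permutation p = 0.333, n = 2). The set thus began above the midpoint of all retained regions and stood near it at 2 h. For the 7 genes other than Prdm14 and Tet1 the mean shift was 0.15 points for MED1 and 0.03 for MED24. Those means joined genes that moved in opposite directions. Among them Dnmt3a had mean shifts of 16.1 (MED1) and 14.9 (MED24) points, and Dnmt3l of -26.8 and -21.3. Medians over the 24 regions were -2.71 and -6.95 points, against -1.44 and -0.06 over all retained regions. Of the 24 MED1 regions, 1 stood 20 points or more higher at 2 h in both clones and 4 stood that much lower. Among all retained MED1 regions these shares were 9.85% and 8.91%. For MED24, 1 of 24 stood higher and 5 lower by this measure, against 12.1% and 12.5% of all retained regions. The mean shift of the set depends on the assignment: it was -3.27 (MED1) and -3.43 (MED24) points with genes within 20 kb, and -0.45 and -0.03 when any region within 20 kb of a gene counted, whether or not another gene was nearer.

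**Figure D3:**
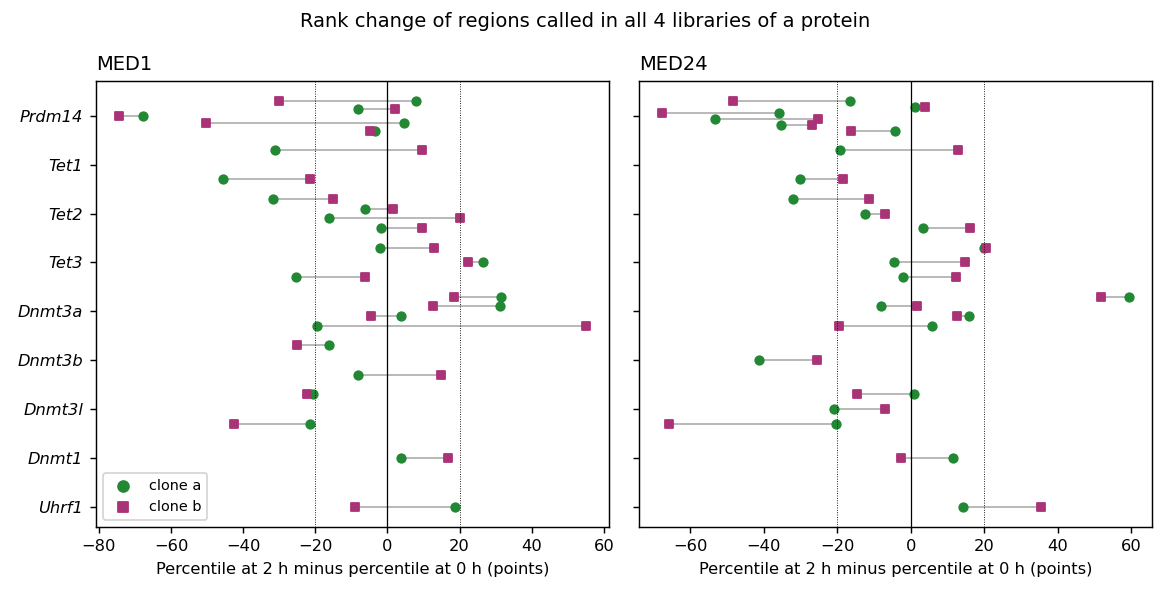
Difference in percentile between 2 h and 0 h (x axis, points) for each region called in all 4 libraries, by gene (y axis), MED1 on the left and MED24 on the right. Each pair of points is 1 region, with clone a as a circle and clone b as a square, and dotted lines mark 20 points. The start region of Dnmt3a lies far to the right in MED24, and regions of Prdm14, Tet1 and Dnmt3l lie to the left.

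Calls of the 2 proteins were compared where their regions overlapped. Of the 10 gained MED1 regions, 7 overlapped a gained MED24 region, 70.0% against 62.0% of all gained MED1 regions. Of the 4 lost MED1 regions, 3 overlapped a lost MED24 region, against 44.5% over all lost MED1 regions. In the other direction 7 of 11 gained MED24 regions overlapped a gained MED1 region, 63.6% against 67.6% of all gained MED24 regions. For lost MED24 regions it was 3 of 6, against 34.3%. The shares of the set thus lay above the background in some classes and below it in another, on few regions. No gained region of the set overlapped a lost region of the other protein. Both proteins came from the same clones and times, so these overlaps are not independent replicates.

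Among the de novo methyltransferase genes, Dnmt3a had a start region that ranked higher at 2 h in both proteins. The gene lies on the plus strand at chr12:3801559-3914443. Its MED1 region at chr12:3806020-3808896, which covers the first and second listed starts and so the Dnmt3a window printed above, stood at percentiles 64.5 and 76.8 at 0 h and 96.0 and 95.3 at 2 h. The shifts were 31.6 and 18.5 points. In MED24 the region at chr12:3806162-3808666 stood at 25.4 and 31.6 at 0 h and at 84.8 and 83.4 at 2 h. Shifts of 59.4 and 51.8 points were the largest upward shifts that both clones shared among the 24 retained MED24 regions. At 0 h its MED24 signal came as 2 and 3 peaks, over 1351 and 1324 bp. At 2 h each clone had a single peak there, over 2505 and 2427 bp.

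Other Dnmt3a regions lay inside the gene. A region at chr12:3906431-3906899 was gained in MED1, at percentiles 56.8 and 43.8 of the whole lists, and its counterpart at chr12:3906403-3906816 was gained in MED24, at 47.5 and 45.4. A further gained MED1 region, chr12:3893237-3893733, ranked low, at 4.57 and 9.83, and no MED24 region met it. The retained MED24 region with the best mean percentile lay at chr12:3889731-3890565, and it held 73.0 and 77.4 at 0 h and 65.1 and 79.0 at 2 h. Dnmt3a as a whole had 6 and 6 called MED1 regions at 0 h and 8 and 7 at 2 h, and 6 and 4 MED24 regions at 0 h and 7 and 7 at 2 h. No region of the gene was lost in either protein by calls in both clones. Within clones the mean was 2.5 gained and 1 lost for MED1 and 2 gained and 0 lost for MED24. Covered MED24 sequence went from 4.26 and 3.09 kb to 5.83 and 6.16 kb.

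Dnmt3b, the other de novo enzyme, had 2 regions per protein that behaved differently from each other. One lay upstream of the gene span (chr2:153649411-153687730), at chr2:153642976-153643485 in MED1, 5926 bp away. It went from percentiles 69.7 and 73.0 to 53.5 and 48.0, shifts of -16.2 and -25.0 points. The MED24 region there, chr2:153642876-153643535, went from 69.2 and 73.2 to 28.1 and 47.7, shifts of -41.2 and -25.6. Both clones were thus lower in both proteins. The second region covered the start. In MED1 it was called in all libraries (chr2:153649183-153650303) and its percentiles were 38.8 and 15.2 at 0 h and 30.5 and 29.9 at 2 h, with clones moving in opposite directions. In MED24 the start region, chr2:153649333-153649950, was called in neither 0 h library and in both 2 h libraries, at percentiles 50.9 and 44.3 of the lists. The Dnmt3b window printed above thus lay under a MED1 region called at both times and a MED24 region called at 2 h only. This goes by the extent of the merged regions. Peaks covered 393 and 859 bp of the 1121 bp MED1 region at 0 h and 462 and 553 bp at 2 h.

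Dnmt3l, the cofactor gene (chr10:78042287-78063622, plus strand), had 2 neighbouring retained regions near its second start, and both ranked lower at 2 h. The first, chr10:78047715-78048683 in MED1, went from percentiles 87.0 and 81.1 to 66.2 and 58.8, shifts of -20.8 and -22.3 points. The second, chr10:78048762-78050304, which covers the CpG-poor Dnmt3l window printed above, went from 50.7 and 46.1 to 29.1 and 3.67, shifts of -21.6 and -42.5. Both clones were lower by more than 20 points at both regions. In MED24 the second region, chr10:78048734-78050435, went from 70.9 and 80.1 to 50.7 and 14.3, shifts of -20.2 and -65.8. The first, chr10:78047750-78048647, went from 84.5 and 85.7 to 63.6 and 78.9, shifts of -20.9 and -6.94. A low-ranked region at chr10:78043326-78043754 was gained in MED1 and retained in MED24. It overlaps another protein-coding gene as well as Dnmt3l, and without such ties Dnmt3l had no gained region.

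The maintenance genes had few regions. Dnmt1 (chr9:20907206-20959888, minus strand) had 1 retained region per protein, over its first and second listed starts. In MED1 that region, chr9:20951996-20953315, stood at percentiles 67.0 and 47.8 at 0 h and 70.8 and 64.5 at 2 h. The MED24 region, chr9:20952123-20953256, stood at 52.5 and 53.7, then 64.0 and 51.0, so the groups overlapped. Inside the gene a region with its midpoint 9035 bp from the nearest start (MED1) was gained in both proteins, at chr9:20943421-20943755 in MED1 (percentiles 25.2 and 76.2 of the lists) and at chr9:20943408-20943725 in MED24 (2.62 and 62.3). Its rank differed widely between the clones. A further MED24 region was gained at chr9:20927870-20928142, at 11.4 and 5.89. Within clones, Dnmt1 had a mean of 2.5 gained and 0 lost MED1 regions. Dnmt1 regions called numbered 1 and 1 at 0 h and 3 and 4 at 2 h for MED1, and 2 and 1, then 3 and 3, for MED24.

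Uhrf1 (chr17:56303337-56323486, plus strand), whose product guides DNMT1, had a single region per protein, retained and spanning both listed starts. The MED1 region, chr17:56302988-56304707, stood at percentiles 34.4 and 60.5 at 0 h and 53.1 and 51.6 at 2 h, and the clones moved in opposite directions. In MED24 the region at chr17:56303040-56304544 stood at 37.3 and 29.3, then 51.6 and 64.7, higher in both clones by 14.3 and 35.4 points.

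Among the dioxygenase genes, Tet1 had the widest Mediator region of the set, and peaks covered less of it at 2 h in both clones. The gene lies on the minus strand at chr10:62804570-62887469. Upstream of it, 1995 bp from the span, a MED1 region of 11081 bp spanned chr10:62889464-62900544. Its best peak at 0 h ranked 86 of 38668 peaks and 85 of 37483 peaks. Peaks covered 10845 and 10799 bp of it at 0 h, as 2 peaks in each clone. At 2 h they covered 3568 and 5030 bp, as 9 and 10 separate peaks. Its percentile among retained regions went from 99.6 and 99.6 to 54.0 and 78.1, shifts of -45.5 and -21.5 points.

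MED24 gave a like picture at the same place. The region chr10:62890200-62900681 was covered over 9939 and 9911 bp at 0 h and over 2696 and 2811 bp at 2 h. Its best peaks ranked 33 and 58 in the 0 h lists, and its percentile went from 99.9 and 99.7 to 69.7 and 81.2. The shifts were -30.2 and -18.5 points. The neighbouring merged region over the start, which holds the Tet1 window printed above, had a middling rank by its best peak. In MED1 (chr10:62883557-62889369) its percentiles were 69.2 and 42.2 at 0 h and 38.0 and 51.9 at 2 h, and the clones moved in opposite directions. In MED24 (chr10:62883370-62887844) they were 63.9 and 53.1, then 44.6 and 65.9. These ranks do not show peaks kept over the start itself. A peak of either protein spanned the start in both clones at 0 h. At 2 h no MED1 peak did, and a MED24 peak did in clone b only. Peaks covered 5305 and 4059 bp of the MED1 region at 0 h and 1984 and 2978 bp at 2 h. For MED24 they covered 3757 and 3670 bp, then 2101 and 2920 bp.

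Tet1 as a whole had 9 and 8 called MED1 regions at 0 h and 6 and 3 at 2 h. MED24 regions numbered 8 and 7, then 2 and 3. Neither pair of groups overlapped, with fewer regions at 2 h, whereas the numbers over all regions given above were higher at 2 h. No Tet1 region was gained and 2 were lost in each protein, with the region at chr10:62801435-62801837 downstream of the gene lost in MED1 and its counterpart chr10:62801590-62801847 lost in MED24. These ranked low, at percentiles 19.9 and 42.4 of the 0 h MED1 lists and 10.3 and 12.2 of the MED24 lists. The other lost regions, chr10:62877401-62879052 in MED1 (14.4 and 28.8) and chr10:62843989-62844229 in MED24 (4.89 and 7.10), had no counterpart in the other protein. Covered MED1 sequence went from 20.1 and 18.2 kb to 6.56 and 8.27 kb, and covered MED24 sequence from 16.1 and 15.7 kb to 4.80 and 5.94 kb. Within clones, the mean was 2 gained and 6 lost MED1 regions and 0 gained and 5 lost MED24 regions. Counts of gained and lost regions depend at this locus on how the wide region is divided. In windows of 250 bp each side of the MED1 summits gained exceeded lost regions by 4, and with clone b at 2 h left out by 1.

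**Figure D4:**
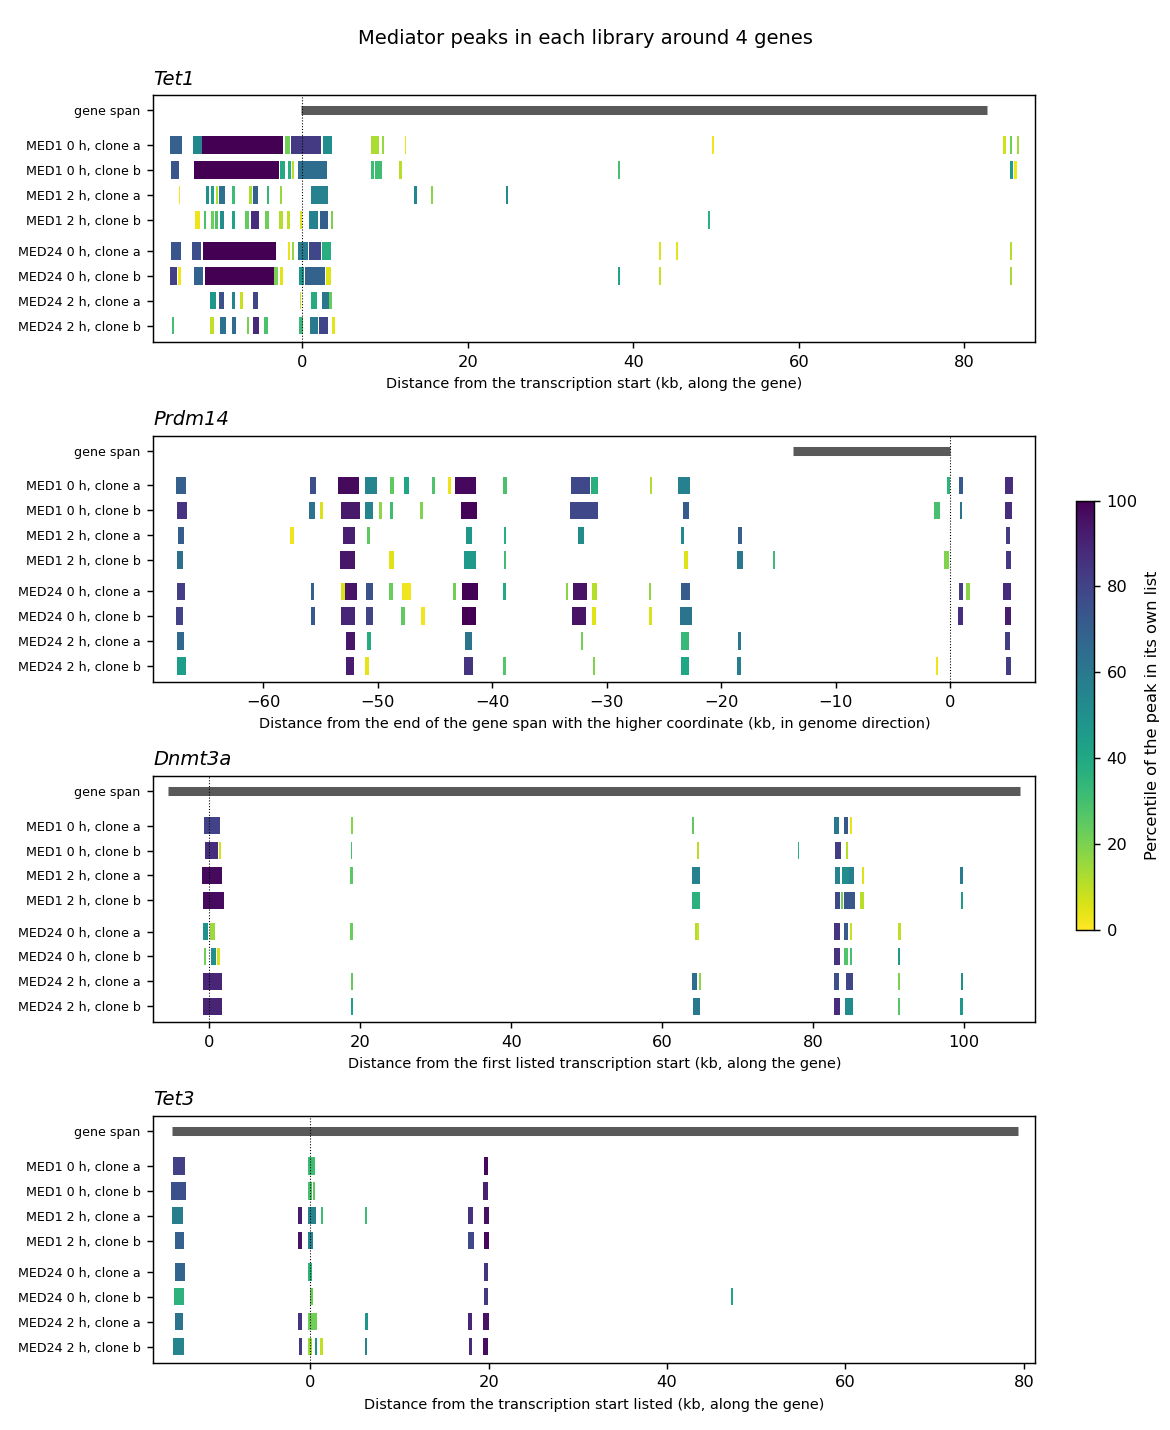
Peaks of each of the 8 libraries (rows) around Tet1, Prdm14, Dnmt3a and Tet3, against distance (x axis, kb) from a listed transcription start, or for Prdm14 from the higher-coordinate end of the gene span. Grey bars are gene spans and colour is the percentile of the peak in its own list. The dark block upstream of Tet1 at 0 h is broken into narrow peaks at 2 h, and the peak at the Dnmt3a start is wider and darker at 2 h.

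Tet2 and Tet3 had gained regions and none lost by calls in both clones. Gained shares were 27.3% of 11 MED1 and 30.0% of 10 MED24 regions at Tet2. At Tet3 they were 28.6% of 7 and 37.5% of 8. Over all regions 17.6% and 16.0% were gained and only 6.90% and 8.83% lost, so a lack of losses on so few regions says little. Within single clones, Tet2 lost 2 MED1 regions and 1 MED24 region in clone a, and Tet3 lost 1 MED24 region in clone b. Tet2 (chr3:133463677-133545136, minus strand) gained 3 regions in each protein. Of these, 2 lay far upstream and were gained in both proteins, at chr3:133600689-133601185 and chr3:133626536-133626962 in MED1, 55553 and 81400 bp from the span. The nearer had list percentiles of 50.2 and 67.5 in MED1 and 56.2 and 57.4 in MED24. The farther had 73.7 and 79.1 in MED1 but 13.3 and 30.1 in MED24. The remaining gained region lay inside the gene and differed between the proteins, at chr3:133515103-133515542 in MED1 (5.74 and 48.1) and at chr3:133518787-133519182 in MED24 (29.4 and 1.73). Called MED1 regions numbered 6 and 4 at 0 h and 8 and 9 at 2 h, and MED24 regions 5 and 3, then 7 and 9.

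Among the retained regions of Tet2, the strongest ranked lower at 2 h. In MED1 this region, chr3:133524434-133525201, went from percentiles 89.1 and 74.7 to 57.5 and 59.7. Its MED24 counterpart, chr3:133524338-133525291, went from 92.9 and 83.8 to 60.9 and 72.5. Both clones were lower in both proteins, although only clone a moved by more than 20 points. The best mean percentile among retained MED24 regions was at chr3:133532329-133534607, with 89.3 and 78.7 at 0 h and 76.9 and 71.7 at 2 h. Over the listed start, chr3:133543923-133545179 in MED1, the percentiles were 51.9 and 51.4 at 0 h and 50.1 and 61.0 at 2 h, and the groups overlapped.

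Tet3 (chr6:83362373-83457208, minus strand) carried the highest ranked gained regions of the set. The region at chr6:83442562-83443048, just upstream of the listed start but inside the gene span, stood at percentiles 91.0 and 94.7 of the 2 h MED1 lists. Its MED24 counterpart, chr6:83442564-83443036, stood at 84.8 and 83.7. A second, downstream of that start at chr6:83423357-83424008, stood at 84.6 and 77.3 in MED1 and, as chr6:83423492-83423947, at 89.1 and 87.8 in MED24. No 0 h library of either protein called these places. MED24 also gained chr6:83435231-83435519, at 45.8 and 53.5.

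The retained MED1 region over the Tet3 start, chr6:83440995-83441975, which covers the Tet3 window printed above, went from percentiles 10.7 and 10.2 to 37.2 and 32.4. With shifts of 26.5 and 22.2 points it was the one retained MED1 region of the set to stand 20 points or more higher in both clones. The MED24 region there, chr6:83440890-83441979, stood at 14.5 and 10.2, then 9.93 and 24.9, without a common direction. The strongest retained region of the gene, at chr6:83421646-83422260 in MED1, kept percentiles of 96.0 and 83.4 at 0 h and 94.0 and 96.4 at 2 h. In MED24 the same place, chr6:83421686-83422312, went from 73.1 and 73.9 to 93.0 and 94.4, shifts of 19.9 and 20.5. Tet3 had 3 and 3 called MED1 regions at 0 h and 7 and 5 at 2 h, and 3 and 4, then 6 and 7, for MED24.

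Prdm14 had the most regions of the 9 genes, 23 for MED1 and 20 for MED24, and most lay outside its span (chr1:13113428-13127163) on the side of lower coordinates. Called MED1 regions numbered 16 and 14 at 0 h and 10 and 10 at 2 h. MED24 regions numbered 17 and 13, then 8 and 10. The groups did not overlap in either protein and were lower at 2 h, against the higher numbers over all regions given above. Within clones, Prdm14 had a mean of 3 gained and 8 lost MED1 regions and of 2 gained and 8 lost MED24 regions. Covered MED1 sequence went from 12.7 and 10.5 kb to 4.48 and 5.32 kb. For MED24 it went from 10.2 and 8.50 kb to 4.00 and 4.45 kb.

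The strongest region of the locus at 0 h ranked lower at 2 h in both proteins. In MED1, chr1:13083871-13085834, 27594 bp from the span, stood at percentiles 96.0 and 98.2 at 0 h and 28.2 and 23.7 at 2 h. Shifts of -67.8 and -74.4 points were the largest downward shifts in the set that both clones shared. In MED24, chr1:13084544-13085902 went from 98.9 and 99.5 to 45.8 and 74.3, shifts of -53.1 and -25.2. A region farther from the gene, 37829 bp from the span, ranked high at both times. There, chr1:13073708-13075599 in MED1 stood at 95.3 and 88.1, then 87.1 and 90.2, and chr1:13073936-13075389 in MED24 at 90.3 and 82.6, then 91.5 and 86.4.

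Further regions around Prdm14 were called at 0 h only. In both proteins these were the places at chr1:13071158-13071743 (MED1 list percentiles 74.6 and 60.8, MED24 67.6 and 71.6) and chr1:13127968-13128279 (70.3 and 59.7, then 81.7 and 86.5). The latter lies 805 bp from the higher-coordinate end of the span. MED24 also lost chr1:13100855-13101116 (15.9 and 5.09) and chr1:13079207-13080022 (2.05 and 22.9), both low in their lists. A single region was gained, again in both proteins, at chr1:13108547-13109042 in MED1 (68.0 and 57.9) and chr1:13108575-13108910 in MED24 (59.0 and 56.6). Of the 6 retained MED24 regions, 5 were lower at 2 h in both clones and 3 of these by 20 points or more. Beside the strongest one these were chr1:13076072-13076767, with shifts of -35.9 and -67.5, and chr1:13103543-13104601, with -35.2 and -26.9. Over all 21529 retained MED24 regions, 7839 were lower in both clones, and 12.5% were lower by 20 points or more. In MED1 only 2 of the 5 retained Prdm14 regions were lower in both clones, 1 of them by 20 points or more. In the others the clones moved in opposite directions. Over all 20152 retained MED1 regions, 7407 were lower in both clones, and 8.91% by 20 points or more.

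Genes around the set in the same pathway were described from 5 lists holding 52 genes. Counts below give gained and lost regions per gene. Of all 15827 genes with a MED1 region, 5071 had more gained than lost regions and 1706 had more lost. For MED24 these numbers were 4711 and 2185 of 16027. Of the 9 genes of the set, 5 had more gained and 2 more lost regions in each protein. These 9 genes held 77 MED1 and 65 MED24 regions, against 59824 at 15827 genes and 59990 at 16027 genes. The set thus had more regions per gene, which leaves more room for a net count other than 0, so these gene numbers are not like for like. Of all regions with a gene within 100 kb, 17.0% were gained and 6.53% lost in MED1, and 15.8% and 8.30% in MED24. The lists and single genes below rest on few regions. The methyl-CpG readers, which bind methylated DNA, had 7 gained and 3 lost of 27 MED1 regions (25.9% and 11.1%). In MED24 they had 4 gained and 2 lost of 30 regions (13.3% and 6.67%). Most gained regions of this list lay at Mbd2, which had 5 gained and 1 lost MED1 regions and 4 gained MED24 regions. Zbtb38 had 2 gained MED1 regions and 1 lost MED24 region, Zbtb4 had 1 lost in each protein and Mbd3 had 1 lost in MED1 alone. The partners of maintenance and recruitment had 4 gained and 6 lost of 65 MED1 regions (6.15% and 9.23%). In MED24 they had 5 gained and 3 lost of 59 regions (8.47% and 5.08%). Among them Usp7, a deubiquitinase that binds DNMT1, had 2 gained and 3 lost MED1 and 1 gained and 3 lost MED24 regions. Hells, a chromatin remodeller, had none gained in MED1 and 2 in MED24. Cdca7, its activator, had 1 gained in each, and Dppa3, which keeps UHRF1 from chromatin, had 1 gained and 1 lost MED1 regions and 1 gained MED24 region.

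The partners of oxidation and repair had 8 gained and 2 lost of 54 MED1 regions (14.8% and 3.70%). In MED24 they had 9 gained and 2 lost of 58 regions (15.5% and 3.45%). At Gadd45a, a stress-response gene tied to demethylation, 4 regions were gained and none lost in each protein, and called MED1 regions numbered 4 and 5 at 0 h and 8 and 9 at 2 h. At Cxxc5, a CpG-binding factor gene, 2 were gained and none lost in each, while Cxxc4 and Gadd45b had 1 gained MED24 region each and no gained or lost MED1 region. PRDM family and Prdm14 partner genes had 8 gained and 4 lost of 70 MED1 regions (11.4% and 5.71%). In MED24 they had 10 gained and 5 lost of 71 regions (14.1% and 7.04%). There Prdm1, a germ cell and B cell regulator, had 3 gained and 1 lost MED1 and 5 gained and 1 lost MED24 regions. Prdm16 had 2 lost MED1 regions and 2 gained and 2 lost MED24 regions, and Cbfa2t3 had 1 gained in each protein. Cbfa2t2, the corepressor gene whose product PRDM14 binds, had 1 gained and 1 lost MED1 regions and 1 lost MED24 region. Germline genes whose promoters are methylated in somatic cells had 5 gained and none lost of 21 MED1 regions and 4 gained and 1 lost of 21 MED24 regions. Dazl had 2 gained MED1 and 1 gained MED24 regions, and Mael 1 of each. Ddx4 had 1 gained region in each protein and 1 lost in MED24, and Stk31 1 gained MED1 region. The median net change per gene was 0 in each of the 5 lists and over all genes, in both proteins.

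**Figure D5:**
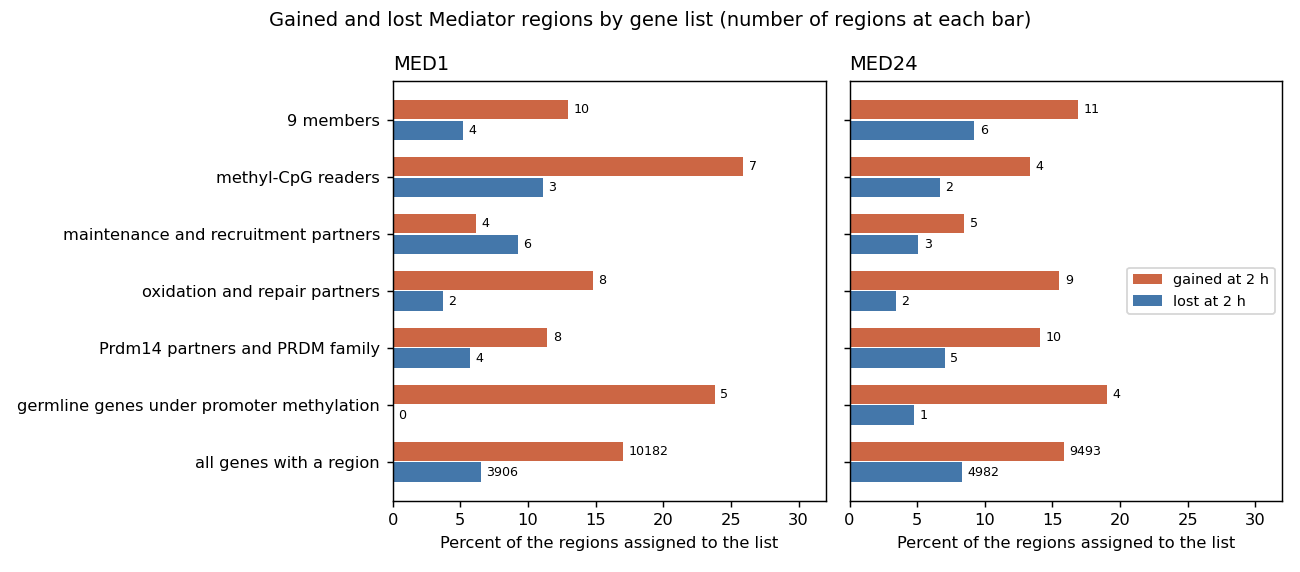
Gained (red) and lost (blue) regions as a percentage of the regions assigned to each list (x axis), MED1 on the left and MED24 on the right, with the number of regions at each bar. Bars of the smaller lists rest on 0 to 10 regions, and the lowest pair gives all genes with a region.

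Genes with the most similar counts over the 8 libraries were found for the members at the ends of the range, by the summed difference in called regions. Nearest to Tet1 were Lefty1 and Slc38a10, each with a summed difference of 7 regions, and Klf4 with 8. Klf4 had 9 and 9 called MED1 regions at 0 h and 5 and 5 at 2 h. Lefty1 had 7 and 8, then 4 and 3. Nearest to Prdm14 were Sik1 and Kat6b, each with a summed difference of 11, and Dym with 12. Nearest to Tet2, the gene with the largest net gain, were Shroom2 with 3, Daam1 with 5 and Cryaa with 6. Shroom2 had 6 and 4 called MED1 regions at 0 h and 9 and 9 at 2 h. Likeness in these counts over 8 libraries is a description of counts only.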

How the data were processed

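Each library has its own deposited peak list, so replicates were not pooled. Bowtie2, bedtools, MACS2 and mm10 are named in the submitters' processing notes, with versions, settings and the use of the inputs not given in the sources used here. In the MED1 lists the authors deposited a score, a fold enrichment (ratio), a −log10 p-value, a −log10 q-value and a summit per peak, all their own values. For 100% of MED1 peaks that score equals the −log10 q times 10 without its decimals. The authors' MED24 lists hold positions and a score only, read here as the same quantity, which those lists do not state. Peak names in the MED24 lists mention FLAG and EP300; the label, MED24, is used here. The files hold no read numbers, so no interval that needs depth is given.

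Peaks of chromosomes 1 to 19, X and Y were merged, classified and assigned with Python 3.11.15, numpy 2.4.6, pandas 2.3.3 and scipy 1.17.1, and figures drawn with matplotlib 3.10.9. Spans of 21883 protein-coding genes and the start windows came from RefSeq tables of GRCm38.p6, the assembly of mm10; no strand is used for Prdm14. Exact two-sided permutation tests over libraries compared called regions, covered bases and mean percentiles. No test was made per region. The scripts were tested on simulated data. The genes, lists, tests and naming rule were chosen with earlier results of these data known. Named singly were all gained and lost regions, each gene's best retained region, regions that moved 20 points or more in both clones, and up to 4 genes per list, by largest net count (1 gene that the rule names is not reported here); further regions over starts, Cbfa2t2 and the division into 7 genes and Prdm14 with Tet1 were chosen after their values were seen. Clone letters come from the sample titles. Deviations of retained percentiles from the group means correlated at -0.005 (MED1) and -0.007 (MED24) between libraries of the same clone. Counts within clones are given for the set and for the genes where the net count differs by more than 1.5 times. Alternatives covered merging, score, list length, assignment, ranking, peak extent, single libraries and the clone as a block.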

Additional observations from a re-analysis of the deposited data

How the results depend on the processing

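The 9 genes' covered bases and mean percentile of retained regions were lower at 2 h under every alternative run, from -18.0 to -9.22 kb (MED1) and -12.8 to -6.83 kb (MED24), and from -12.0 to -0.45 points and -15.7 to -0.03 points. The smallest shifts came from counting any region within 20 kb of a gene. Counts were less steady. With the 20000 highest ranked peaks of each list, MED1 had 5 gained and 8 lost regions and MED24 3 gained, the mean number called differed by -1.5 in each protein, and Dnmt3l stood at -1 net MED1 region. With 35000 peaks, MED1 had 7 lost and MED24 2 lost, and the differences were -2.5 and 0. A score of 50 or more left 2 lost MED24 regions, a merging overlap of 100 bp a MED24 difference of 0, and summit windows of 250 bp 16 gained MED1 regions and a Tet1 net of 4. Counted within clones (replicate block), MED1 had 18.5 gained and 16 lost and MED24 15 gained and 14.5 lost regions; the other summaries were unchanged by it. Leaving out single libraries gave 10 to 18 gained and 5 to 13 lost MED1 regions, 11 to 15 gained and 7 to 15 lost MED24 regions, and differences in called regions of 0 to 5 and -4 to 5 (-2.5 without clone b at 2 h); by construction a class then needs fewer libraries. Tet1 had a MED1 net of -6 to 1, the latter without clone b at 2 h. Of 243 net counts per gene under the alternatives, 176 stayed within 1.5 times and 3, those named, reversed. Shifts of single regions were rerun only for regions picked because both clones moved 20 points or more in these data. Their sign was therefore largely fixed beforehand, and settings in which a region was no longer retained gave no value. Of the 132 shifts obtained, 123 stayed within 1.5 times and none changed sign. The cause of the changes was not tested. Leaving out regions tied between genes was chosen after seeing the data and left 9 gained MED1 regions. No depth is known.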
